A study of Saccharomyces cerevisiae with 12 samples.

Results

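Transfer RNA (tRNA) genes of the yeast nuclear genome are the subject here, as an Affymetrix yeast array read them. A probe set, the group of short probes that reports 1 transcript, was taken when the platform annotation gave it a single gene and the R64 gene table types that gene as a nuclear tRNA. This gave 92 probe sets for 91 tRNA genes, out of 275 nuclear tRNA genes in the table and 9335 probe sets on the array. Of these, 83 genes exceeded a signal of 12, the floor used throughout, on at least 3 of the 12 arrays, and they were tested among 5400 genes of all kinds. The remaining 8 genes (EMT5, HSX1, SUF3, SUF5, TRT2, YNCJ0001C, YNCJ0018W and YNCL0038W) stayed at or near the floor, and their highest signal on any array was 18, for SUF3. SUF3 lay just outside the limit, with 18 and 12.8 on the arrays where it passed the floor, and SUF2 lay just inside it, with 4 arrays above the floor. Of the 83 genes, 14 carry a standard symbol and 69 are known in the annotation by a systematic name alone, and no amino acid is given below for a systematic name.

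The arrays come from anaerobic chemostats of Saccharomyces cerevisiae CEN.PK113-7D, a prototrophic haploid laboratory strain of mating type a. A chemostat is fed and drained at an equal rate, so the dilution rate sets the growth rate, and it was 0.03 per hour in all groups. There were 4 groups of 3 arrays: nitrogen-limited at 12 °C, nitrogen-limited at 30 °C, carbon-limited at 12 °C and carbon-limited at 30 °C. Each array of a group stands for a culture grown on its own, per the labels' protocols, and every sample is labelled as polyA RNA.

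Transfer RNAs are short RNAs that carry amino acids to the ribosome. RNA polymerase III makes them, and nucleases, splicing enzymes and modifying enzymes finish them before export from the nucleus. Mature tRNAs have no poly(A) tail, whereas in yeast nuclei the TRAMP complex adds short tails to faulty tRNA precursors and the exosome then degrades them. Because polyA RNA was labelled, the amount of a tRNA and the share of its molecules that carry a tail cannot be told apart in these signals. In bulk cultures, fewer cells that hold a transcript and less of it per cell cannot be told apart either.

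Signals were scaled by the authors to a common trimmed mean of 150.1 on each array. The median signal per array ran between 41.2 and 51.4, and 22.2% to 26.7% of probe sets lay below the floor. Pairs of arrays correlated at 0.952 to 0.986 within groups and at 0.864 to 0.972 between groups. All 8 a-cell marker genes were above the floor on at least 1 array of each group, with summed signals between 7796 and 15520. The summed signal of the 4 alpha-cell markers was 2387 to 3395 at 12 °C under nitrogen limitation, 361 to 517.4 at 30 °C under nitrogen limitation, 1413 to 1880 at 12 °C under carbon limitation and 360.1 to 540 at 30 °C in carbon-limited cultures. One alpha-cell marker, MF(ALPHA)2, was at the floor on all 3 arrays of both 30 °C groups. Of the 4, all rose at 12 °C under nitrogen limitation and 2 rose under carbon limitation. Of the 8 a-cell markers, 3 rose under nitrogen limitation and 1 rose under carbon limitation, and the part of these markers in the tRNA results was not tested.

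Most tRNA signals were lower in the cold, with a log2 change below 0 for 66 of the 83 genes under nitrogen limitation and 67 under carbon limitation. Under nitrogen limitation, 46 of the 83 tRNA genes fell at 12 °C relative to 30 °C, 15 rose and 22 did not pass the test (limma, Benjamini-Hochberg adjusted p below 0.05). Among all 5400 genes tested, 22.3% fell and 15.9% rose in this comparison, 38.2% in all. Under carbon limitation, 41 tRNA genes fell at 12 °C, 5 rose and 37 did not pass, against 12.6% of all genes that fell and 13.1% that rose, 25.7% in all. The median log2 change of the tRNA genes was -0.75 under nitrogen limitation and -0.81 under carbon limitation, and that of all genes was -0.10 and 0.03. Signals of the 2 temperatures did not overlap, with 12 °C lower, for 42 tRNA genes under nitrogen limitation and 45 under carbon limitation, compared with 28.5% and 19.5% of all genes. With 12 °C higher, they did not overlap for 15 and 8 tRNA genes, compared with 20.3% and 23.3% of all genes.

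The carbon-limited falls held better against the loss of an array. Leaving out each of the 12 arrays in turn, 38 of the 41 carbon-limited falls and 25 of the 46 nitrogen-limited falls passed every time. Without replicate 3 of the 30 °C nitrogen-limited group, 29 tRNA genes fell under nitrogen limitation. Scaling each array to its median moved the log2 change of all genes under nitrogen limitation by 0.21, and 29 tRNA genes then fell and 15 rose, with 798 of all genes falling and 1329 rising. The tRNA median under that scaling was -0.53, against 0.12 for all genes.

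**Figure D1:**
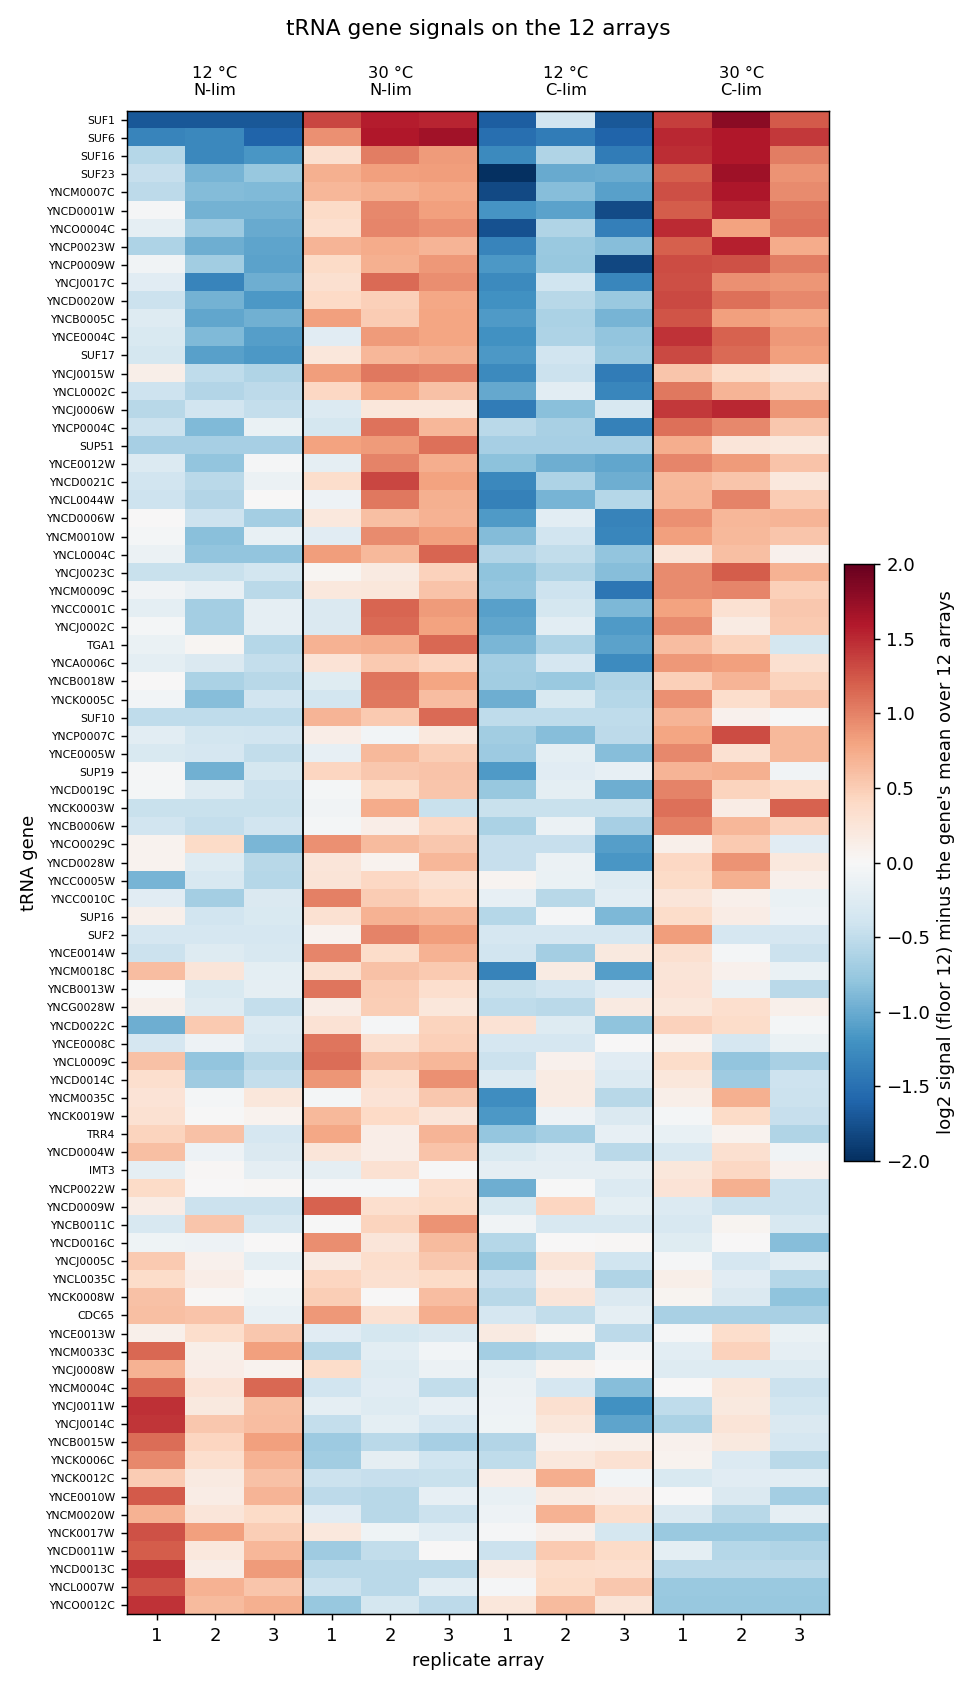
Signals of the 83 tRNA genes (rows, ordered by their mean temperature change) on the 12 arrays (columns, by group), as log2 of the floored signal minus the gene's mean over the 12 arrays. Blue is below and red above that mean; upper rows are blue in both 12 °C groups and red in both 30 °C groups, and the lowest rows are red mainly at 12 °C under nitrogen limitation.

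SUF1 and SUF6 fell most. These copies of 1 glycine tRNA known from frameshift suppressor mutations had the lowest temperature changes of all 83 genes. SUF1 had 5.0, 8.8 and 12.0 at 12 °C under nitrogen limitation, all at or under the floor, and 98.3, 116.3 and 112.3 at 30 °C. Under carbon limitation it had 12.4, 29.5 and 8.3 at 12 °C and 101.7, 136.0 and 91.4 at 30 °C. The groups stood far apart under either limitation. SUF1 needed its 30 °C arrays to enter the test, so its calls are no independent support. SUF1 was at least 9.06-fold lower at 12 °C under nitrogen limitation (log2 change -3.18 ± 0.29 SE, adjusted p = 6.89e-07) and 6.60-fold lower under carbon limitation (log2 change -2.72 ± 0.29 SE, adjusted p = 5.37e-06). SUF6 had 14.5, 14.9 and 11.5 at 12 °C and 68.6, 110.5 and 116.9 at 30 °C under nitrogen limitation. In carbon-limited cultures SUF6 had 12.8, 13.8 and 9.1 at 12 °C and 103.7, 110.9 and 96.7 at 30 °C. All 6 cold signals of SUF6 lay near the floor, a 6.99-fold fall under nitrogen limitation (adjusted p = 1.5e-07) and an 8.07-fold fall under carbon limitation (adjusted p = 7.63e-08).

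SUF16, SUF17 and SUF23 are copies of another glycine tRNA, and they fell as well. SUF16 had 89.4, 54.5 and 59.0 at 12 °C and 165.0, 271.2 and 241.0 at 30 °C under nitrogen limitation. Under carbon limitation it had 55.0, 87.5 and 50.6 at 12 °C and 368.5, 404.1 and 268.8 at 30 °C. Every cold signal of SUF16 was below every warm one. The fall was 3.35-fold under nitrogen limitation (log2 change -1.74 ± 0.27 SE, adjusted p = 0.000133) and 5.48-fold under carbon limitation (log2 change -2.45 ± 0.27 SE, adjusted p = 6.93e-06). SUF23 changed by -1.50 under nitrogen limitation and by -2.60 under carbon limitation, and SUF17 by -1.40 and -1.85, on the log2 scale.

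The systematic names YNCB0005C, YNCD0001W, YNCD0020W, YNCE0004C, YNCJ0017C, YNCM0007C, YNCO0004C, YNCP0009W and YNCP0023W, traced these 3 closely across the arrays. Genes were grouped by complete linkage on the root mean square difference of their log2 signals over the 12 arrays. No pair within a group differed by more than 0.5, a limit chosen after the values were seen. Genes of the same group are called alike. A gene called alike to no other may still lie within 0.5 of some gene outside its group. The further members of each group so formed are named with it. SUF16, SUF17, SUF23 and those systematic names formed a group of 12, with a lowest pairwise Pearson correlation over the 12 arrays of 0.924. Whether their probe sets share probes was not tested, so the 12 may not be separate measurements. The median signal of the 12 was 77.0 at 12 °C and 238 at 30 °C under nitrogen limitation, and 67.2 at 12 °C and 319 at 30 °C in carbon-limited cultures. All 12 fell under both limitations, by log2 changes of -1.74 to -1.23 under nitrogen limitation and of -2.61 to -1.85 under carbon limitation. Leaving out any 1 array ended none of these 24 calls. The lowest carbon-limited change of the group was that of YNCD0001W, with 64.8, 70.2 and 42.3 at 12 °C and 338.4, 423.4 and 304.1 at 30 °C.

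The leucine tRNA gene SUP51, the proline tRNA gene SUF10 and the alanine tRNA gene TGA1 fell under both limitations. SUP51 had 5.7, 1.7 and 6.7 at 12 °C and 33.1, 34.2 and 40.4 at 30 °C under nitrogen limitation. In carbon-limited cultures SUP51 had 2.3, 6.4 and 6.3 at 12 °C and 31.3, 22.4 and 21.9 at 30 °C. Its cold signals were thus all under the floor, so its falls of at least 2.98-fold under nitrogen limitation (adjusted p = 4.82e-06) and at least 2.07-fold under carbon limitation (adjusted p = 0.00034) are bounds. SUF10 had 6.0, 8.7 and 4.1 at 12 °C and 27.4, 24.6 and 37.5 at 30 °C under nitrogen limitation, a fall of at least 2.45-fold (adjusted p = 0.000133). Under carbon limitation SUF10 fell at least 1.70-fold (adjusted p = 0.0103), and without 1 replicate of the 30 °C group, replicate 1, its adjusted p was 0.0641. SUP51 and SUF10 passed the floor on their 30 °C arrays alone. They entered the test through the temperature at which they are high, so their calls are no independent support. YNCL0004C was alike to SUP51 and SUF10 and fell under both limitations, by log2 changes of -1.45 and -0.94. TGA1 averaged 22.1 ± 4.64 at 12 °C and 46.3 ± 8.3 at 30 °C under nitrogen limitation (SD, n = 3 each; log2 change -1.08, adjusted p = 0.00388), and had 13.4, 16.5 and 6.1 at 12 °C and 39.0, 34.5 and 19.8 at 30 °C in carbon-limited cultures (log2 change -1.11, adjusted p = 0.00491).

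The serine tRNA genes SUP16 and SUP19 and the proline tRNA gene SUF2 fell less securely. SUP19 changed by -0.96 under nitrogen limitation (adjusted p = 0.0177) and by -0.94 under carbon limitation (adjusted p = 0.0272), and both calls depended on single arrays. The first was lost without replicate 2 of the 12 °C or replicate 2 or 3 of the 30 °C nitrogen-limited group (adjusted p 0.0511 to 0.0913), the second without replicate 1 of the 12 °C or replicate 1 or 2 of the 30 °C carbon-limited group (adjusted p 0.104 to 0.132). SUP16 fell under nitrogen limitation (log2 change -0.75, adjusted p = 0.0244), a call lost without replicate 2 or 3 of either temperature (adjusted p 0.0653 to 0.0853), and its carbon-limited change was -0.63 (adjusted p = 0.067). The difference between these changes, -0.11, did not pass (adjusted p = 0.883). SUF2 had 6.0, 2.8 and 2.3 at 12 °C and 15.9, 30.2 and 27.0 at 30 °C under nitrogen limitation, a fall of at least 1.96-fold (adjusted p = 0.012) that was lost without replicate 2 (adjusted p = 0.0641) or 3 (adjusted p = 0.0505) of the 30 °C group. SUF2 entered the test only through that 30 °C group, in which all 3 of its arrays passed the floor, so this call is no independent support. TRR4, CDC65 and IMT3 passed neither temperature test. TRR4, an arginine tRNA named here after its values were seen, had 37.9, 41.9 and 22.1 at 12 °C and 47.6, 30.6 and 44.7 at 30 °C under nitrogen limitation (adjusted p = 0.412), and 16.3, 17.3 and 24.8 at 12 °C and 25.2, 29.2 and 18.4 at 30 °C in carbon-limited cultures (adjusted p = 0.427). Its groups overlapped under either limitation. IMT3, an initiator methionine tRNA, was among the 3 dimmest of the 83 genes, with 1.4 to 18 over the 12 arrays, and its changes were -0.15 (adjusted p = 0.467) and -0.41 (adjusted p = 0.0633). YNCB0011C and YNCJ0008W, the other 2 dimmest, ranged from 4.5 to 27.8 and from 6.1 to 23.2 and passed neither test.

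**Figure D2:**
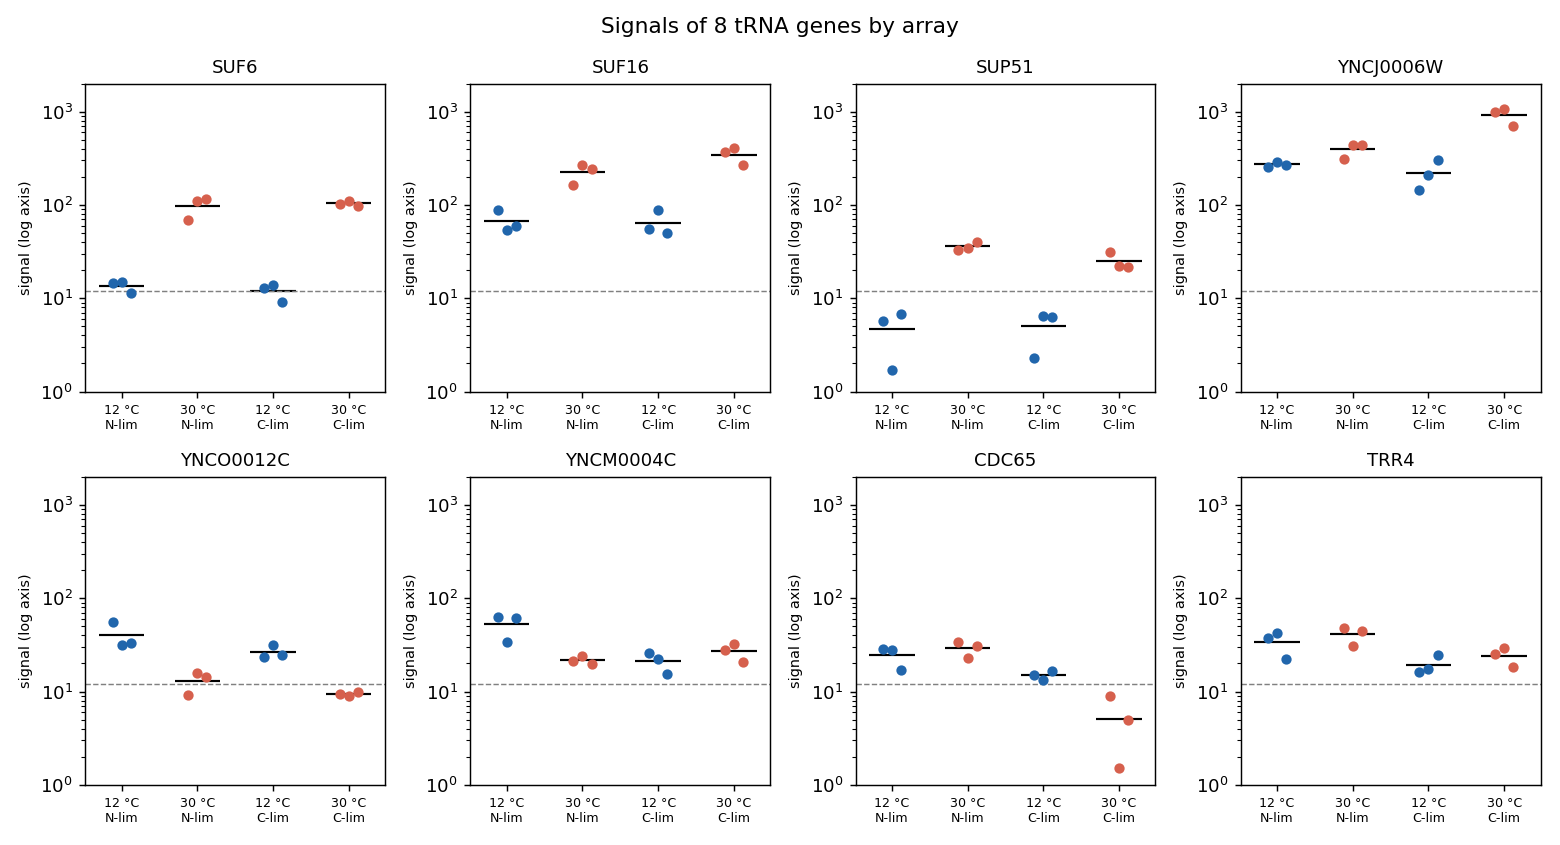
Signals of 8 tRNA genes on each array (points; log axis) with the group mean (bar) and the floor of 12 (dashed line), for the 4 groups. SUF6, SUF16 and SUP51 are lower at 12 °C under both limitations, YNCJ0006W is highest at 30 °C in carbon-limited cultures, YNCO0012C is higher at 12 °C under both, YNCM0004C is higher at 12 °C under nitrogen limitation, CDC65 is under the floor in the 30 °C carbon-limited group, and the groups of TRR4 overlap.

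The 6 brightest tRNA genes, by mean log2 signal, were YNCJ0006W, YNCJ0015W, YNCB0018W, YNCC0001C, YNCM0010W and YNCP0004C. YNCJ0015W had 268.8, 174.9 and 164.9 at 12 °C and 446.2, 515.4 and 500.1 at 30 °C under nitrogen limitation, a 2.46-fold fall (log2 change -1.30 ± 0.24 SE, adjusted p = 0.000666). In carbon-limited cultures it had 103.5, 184.6 and 94.5 at 12 °C and 367.4, 322.5 and 296.2 at 30 °C, a 2.69-fold fall (log2 change -1.43 ± 0.24 SE, adjusted p = 0.00047). Its groups did not overlap at either limitation, and no other tRNA gene was alike to it. YNCJ0006W had 256.1, 289.9 and 270.3 at 12 °C and 313.8, 443.1 and 443.4 at 30 °C under nitrogen limitation, a log2 change of -0.54 ± 0.24 SE that did not pass (adjusted p = 0.09). Under carbon limitation it had 143.3, 211.4 and 301.7 at 12 °C and 1003.6, 1073.8 and 699.9 at 30 °C, a 4.35-fold fall (log2 change -2.12 ± 0.24 SE, adjusted p = 1.15e-05). The 3 signals at 30 °C in carbon-limited cultures were the highest of any tRNA gene on those arrays.

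The other 4 of the brightest belong to a group of 8 alike genes, with YNCE0012W, YNCJ0002C, YNCK0005C and YNCL0044W. All 8 fell under carbon limitation (log2 changes -1.75 to -1.21), where the median signal was 111 at 12 °C and 316 at 30 °C, and all 8 calls remained whichever array was left out. Under nitrogen limitation 7 of the 8 fell (log2 changes of the 8 from -0.94 to -0.86), where the median signal was 156 at 12 °C and 335 at 30 °C. None of these 7 limma calls remained without replicate 2 of the 12 °C group, or without replicate 2 or 3 of the 30 °C group. In the 30 °C nitrogen-limited group these genes had 154.2 to 193.2 on replicate 1 and 372.6 to 482.8 on replicate 2, and the 12 °C arrays had 109.4 to 231.2, so replicate 1 lay within the range of the cold arrays. A second group of 8 alike genes, YNCA0006C, YNCB0006W, YNCD0006W, YNCD0019C, YNCE0005W, YNCJ0023C, YNCL0002C and YNCM0009C, had median signals of 68.5 at 12 °C and 120 at 30 °C under nitrogen limitation and of 55.0 at 12 °C and 147 at 30 °C in carbon-limited cultures. All 8 fell under carbon limitation (log2 changes -1.70 to -1.18), whichever array was left out. Under nitrogen limitation 6 of them fell, and without replicate 3 of the 30 °C group 1 did. YNCD0021C, alike to no other, fell by log2 changes of -1.18 under nitrogen limitation and -1.43 under carbon limitation, with every cold signal below every warm one.

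A smaller set of tRNA signals was higher in the cold. YNCD0013C, YNCK0017W, YNCL0007W, YNCO0012C and YNCM0020W, 5 genes, rose at 12 °C under both limitations. YNCO0012C had 55.2, 31.6 and 33.3 at 12 °C and 9.2, 15.9 and 14.2 at 30 °C under nitrogen limitation, a 2.78-fold rise (log2 change 1.47 ± 0.21 SE, adjusted p = 7.84e-05). In carbon-limited cultures it had 23.7, 31.4 and 24.4 at 12 °C and 9.5, 9.0 and 9.9 at 30 °C, a rise of at least 2.19-fold (adjusted p = 0.00116). All warm carbon-limited signals of YNCO0012C were under the floor, and no cold signal was. YNCD0013C, YNCK0017W and YNCL0007W were alike to it, and the 4 genes had median signals of 33.0 at 12 °C and 14.6 at 30 °C under nitrogen limitation and of 22.1 at 12 °C and 9.25 at 30 °C in carbon-limited cultures. Their log2 changes were 0.90 to 1.47 under nitrogen limitation and 0.64 to 1.13 under carbon limitation. All carbon-limited signals of the 4 genes at 30 °C were under the floor, at most 11.8, so the carbon-limited changes are lower bounds. The nitrogen-limited change of YNCD0013C is a lower bound for the same reason. YNCD0013C passed the floor on its 12 °C arrays alone, and YNCO0012C needed its 12 °C arrays to enter the test. The calls of these genes are therefore no independent support. Without any 1 of the 30 °C carbon-limited arrays, 2 of the 4 carbon-limited calls remained, those of YNCL0007W and YNCO0012C. YNCM0020W was brighter, at 170 ± 27.8 at 12 °C and 94.2 ± 10.8 at 30 °C under nitrogen limitation (SD, n = 3 each; log2 change 0.85, adjusted p = 0.00683). Its carbon-limited log2 change of 0.67 (adjusted p = 0.0362) was lost without replicate 2 or 3 of the 12 °C group or any array of the 30 °C group (adjusted p 0.0558 to 0.144).

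A further 10 genes rose at 12 °C under nitrogen limitation and did not pass under carbon limitation. They were YNCB0015W, YNCD0011W, YNCE0010W, YNCK0006C, YNCJ0011W, YNCJ0014C, YNCM0004C, YNCM0033C, YNCK0012C and YNCE0013W, of which YNCK0006C, YNCJ0011W, YNCK0012C and YNCE0013W are named here after their values were seen. YNCB0015W had 65.1, 40.7 and 53.1 at 12 °C and 18.1, 20.8 and 19.0 at 30 °C under nitrogen limitation, a 2.70-fold rise (log2 change 1.43 ± 0.24 SE, adjusted p = 0.000262). In carbon-limited cultures the same gene had 20.1, 31.9 and 32.2 at 12 °C and 32.0, 34.6 and 23.7 at 30 °C, groups that overlapped (log2 change -0.12, adjusted p = 0.765). YNCD0011W, YNCE0010W and YNCK0006C were alike to YNCB0015W, and the 4 rose by log2 changes of 1.08 to 1.43 whichever array was left out. YNCJ0014C had 74.8, 40.7 and 42.8 at 12 °C and 20.0, 24.3 and 22 at 30 °C under nitrogen limitation (log2 change 1.2 ± 0.32 SE, adjusted p = 0.00788). Replicate 1 of the 12 °C nitrogen-limited group was the highest array for most of these 10 genes, and without it YNCJ0011W (log2 change 0.96, adjusted p = 0.0447) had an adjusted p of 0.185. The call of YNCJ0011W was lost in 8 of the 12 cases with 1 array left out. YNCE0013W, at 136 ± 20.3 at 12 °C and 88.0 ± 3.96 at 30 °C under nitrogen limitation, had the smallest rise (log2 change 0.62, adjusted p = 0.0352), a call lost without replicate 2 or 3 of the 12 °C group or any array of the 30 °C group (adjusted p 0.0664 to 0.111). The rise of YNCM0033C (log2 change 0.97, adjusted p = 0.0122) was lost without replicate 1 of the 30 °C group (adjusted p = 0.062). YNCK0012C was alike to YNCM0020W, which rose under both limitations. Its carbon-limited log2 change of 0.51 did not pass (adjusted p = 0.0831), though the temperatures did not overlap. The difference between its changes, 0.36, did not pass either (adjusted p = 0.494).

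Further falls were called under 1 limitation and not under the other. YNCK0003W, a dim gene that was alike to no other, had 3.4, 6.2 and 8.3 at 12 °C and 15.6, 27.2 and 9.0 at 30 °C under nitrogen limitation (adjusted p = 0.149), and 1.5, 9.4 and 4.4 at 12 °C and 34.8, 18 and 36.8 at 30 °C in carbon-limited cultures, a fall of at least 2.37-fold (adjusted p = 0.00373). It entered the test only through its 30 °C carbon-limited arrays, as 1 of 2 genes, with SUF2, that depended on a single group for this, and the call is no independent support. YNCD0028W fell under carbon limitation (log2 change -1.08, adjusted p = 0.0112), a call lost without replicate 3 of the 12 °C or replicate 2 of the 30 °C group (adjusted p 0.0576 and 0.0617). YNCC0010C had 19.4, 14.2 and 18.5 at 12 °C and 45.7, 32.4 and 29.9 at 30 °C under nitrogen limitation, without overlap (log2 change -1.04, adjusted p = 0.00121), and changed by -0.39 under carbon limitation (adjusted p = 0.19). YNCO0029C had log2 changes of -0.85 under nitrogen limitation (adjusted p = 0.0361) and -0.81 under carbon limitation (adjusted p = 0.0597), and their difference did not pass (adjusted p = 0.97). The nitrogen-limited call was lost without replicate 3 of the 12 °C group or any array of the 30 °C group (adjusted p 0.0578 to 0.188). These 4 genes are named here after their values were seen. Of the 15 genes that passed neither test, YNCP0022W had the log2 change nearest 0, 0.05 under nitrogen limitation, and YNCM0018C had the lowest under carbon limitation, -0.83 (adjusted p = 0.0657); both are likewise named after their values were seen.

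No tRNA gene was called in opposite directions under the 2 limitations. Of the 83 genes, 34 fell under both, 5 rose under both and 15 passed neither test. Falls were called for 12 under nitrogen limitation and for 7 under carbon limitation without a call under the other, and rises for 10 under nitrogen limitation. Of these 29 genes called under 1 limitation, 6 passed the test of the difference between the limitations. Across the 83 genes the log2 changes under the 2 limitations, which rest on separate arrays and the same probes, had a Pearson correlation of 0.766. Of the 34 that fell under both, 29 had the lower log2 change under carbon limitation and 5 under nitrogen limitation. These 5 were SUF1, SUF10, SUP19, SUP51 and YNCL0004C. For 27 of the 34, already chosen by both calls, the temperatures overlapped under neither limitation. The shares of all genes in these joint classes were not counted, so the counts cannot be set against genes in general.

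**Figure D3:**
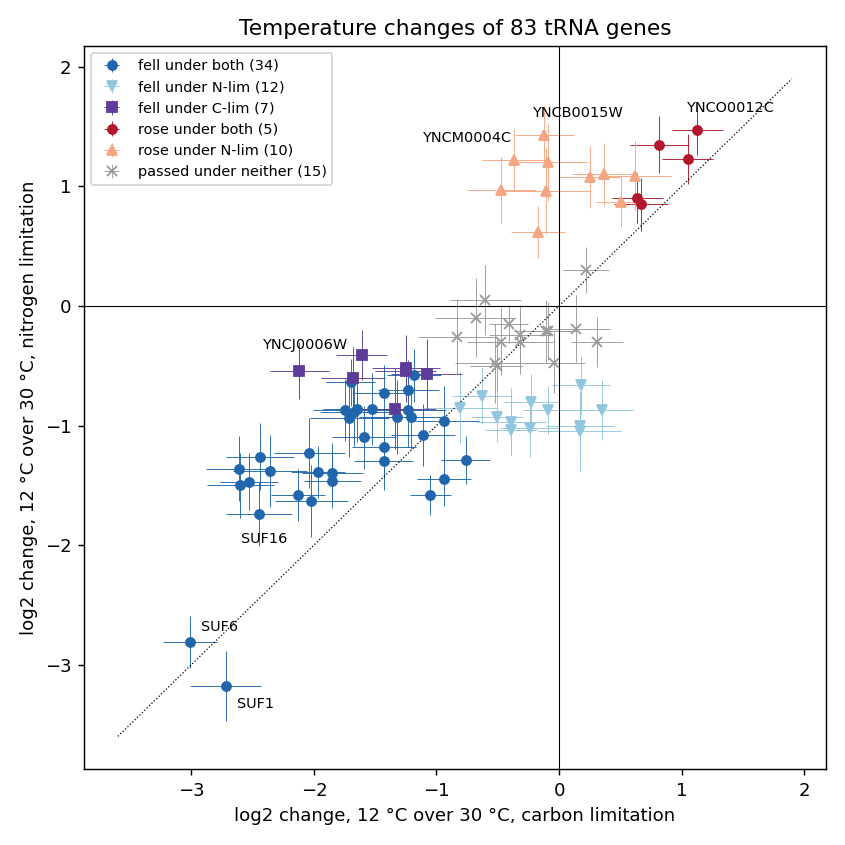
Log2 change, 12 °C over 30 °C, of each of the 83 tRNA genes under nitrogen limitation (vertical axis) against that under carbon limitation (horizontal axis), with the standard error of each as bars and the line of equal change dotted. Symbols mark the calls; 34 genes fell under both, 5 rose under both, and the 10 called as rising under nitrogen limitation and not under carbon limitation lie above the line, with carbon-limited changes from -0.47 (YNCM0033C) to 0.62 (YNCD0011W).

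The difference between these temperature effects passed the test for 7 tRNA genes, 6 with the higher log2 change under nitrogen limitation and 1 with the lower. Of all genes, 2.91% passed upward and 4.54% downward, 7.44% in all, and the median difference was 0.39 for the tRNA genes and -0.10 for all genes. With arrays scaled to their medians, which moved the difference of all genes by 0.17, 8 tRNA genes passed upward and 0 downward, and with quantile normalization 7 and 0 (limma; 8 were lower at an unadjusted p below 0.05 on the scale as deposited). YNCJ0006W differed by 1.58 ± 0.34 SE (log2, adjusted p = 0.00988), with a called fall under carbon limitation and none under nitrogen limitation. YNCB0015W differed by 1.55 (adjusted p = 0.0102). YNCM0004C, which differed by 1.59 ± 0.37 SE (adjusted p = 0.0165), had 62.2, 33.7 and 61.4 at 12 °C and 21.4, 23.9 and 19.8 at 30 °C under nitrogen limitation, against 25.6, 22.1 and 15.5 at 12 °C and 27.9, 32.6 and 20.7 at 30 °C in carbon-limited cultures. Its 12 °C nitrogen-limited arrays were above all 9 others. YNCM0033C was alike to it and differed by 1.44 (adjusted p = 0.0345). YNCP0007C and YNCJ0023C differed by 1.2 and 1.06, with larger falls under carbon limitation. YNCD0009W differed by -1.22 (adjusted p = 0.044). Under nitrogen limitation it fell, with 17.8, 11.8 and 11.9 at 12 °C and 36.5, 20.3 and 21.0 at 30 °C (adjusted p = 0.0114). That fall was lost without replicate 1 of the 30 °C group (adjusted p = 0.0652), with median scaling and with floors of 1 and 50. The floor of 50 lies above all its signals.

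These differences were fragile to single arrays. The calls of YNCJ0006W and YNCB0015W remained whichever array was left out. YNCM0004C was lost without replicate 2 of the 30 °C carbon-limited group (adjusted p = 0.0541), and YNCP0007C without that array or replicate 1 or 2 of the 30 °C nitrogen-limited group (adjusted p 0.0516 to 0.0742). YNCJ0023C was lost in 7 of the 12 cases (adjusted p up to 0.0934), and YNCM0033C and YNCD0009W in 8 each (adjusted p up to 0.101 and 0.103). The number of calls was 2 without replicate 2 of the 30 °C carbon-limited group and 11 without replicate 2 of the 12 °C carbon-limited group. It was 4 without replicate 1 of the 30 °C carbon-limited group, and 3 and 4 without replicates 1 and 2 of the 30 °C nitrogen-limited group.

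At 30 °C, 10 tRNA genes were higher under nitrogen than under carbon limitation and 3 were lower, against 14.3% and 12.6% of all genes, 26.9% in all. The tRNA median difference was -0.06 and that of all genes 0.04. With median scaling the split was 9 higher and 5 lower, and with quantile normalization it was 7 and 6. CDC65, a glutamine tRNA, had 34.3, 23.1 and 31.1 under nitrogen limitation and 9.0, 1.5 and 4.9 under carbon limitation, where all 3 signals were below the floor. The difference was at least 2.42-fold (log2 1.28 ± 0.21 SE, adjusted p = 0.000399). At 12 °C CDC65 had 28.4, 27.7 and 16.9 under nitrogen limitation and 14.9, 13.3 and 16.5 under carbon limitation, which did not pass (adjusted p = 0.0786). YNCL0009C, YNCD0014C, YNCD0016C and YNCE0014W, 4 alike genes, were higher under nitrogen limitation at 30 °C by log2 differences of 0.73 to 1.15. These 4 fell at 12 °C under nitrogen limitation (log2 changes -1.05 to -0.66), with median signals of 15.8 at 12 °C and 33.9 at 30 °C, and the contrasts share the 30 °C nitrogen-limited arrays. Their carbon-limited medians were 17.1 at 12 °C and 16.9 at 30 °C. Without replicate 2 of the 12 °C nitrogen-limited group 1 of the 4 falls passed. The remaining genes higher under nitrogen limitation were YNCD0009W (1.00), YNCB0013W (0.76), YNCE0008C (0.75), YNCK0017W (at least 0.70) and SUP51 (0.52), as log2 differences. All 3 carbon-limited signals of YNCK0017W at 30 °C, 10.8, 9.6 and 3.8, were under the floor. So were 2 of those of YNCD0009W, which had 13.4, 2.5 and 6.8, and 1 of those of YNCE0008C, at 11.7.

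Lower under nitrogen limitation at 30 °C were YNCJ0006W, YNCP0007C and YNCJ0023C, by log2 differences of -1.2, -0.82 and -0.73. YNCP0007C had 56.3, 49.0 and 59.1 under nitrogen limitation and 88.1, 126.7 and 80.6 under carbon limitation, groups that did not overlap. YNCJ0023C had 93.1, 102.6 and 125.0 under nitrogen limitation and 175.2, 211.3 and 146.9 under carbon limitation, again without overlap. Of these 13 calls, those of CDC65, YNCD0009W and YNCJ0006W remained whichever array was left out. The number called was 6 without replicate 2 and 7 without replicate 3 of the 30 °C carbon-limited group.

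At 12 °C, 5 tRNA genes were higher under nitrogen than under carbon limitation, YNCM0004C, YNCJ0014C, YNCM0033C, YNCK0017W and YNCB0015W, by log2 differences of 1.29, 1.17, 1.15, 0.96 and 0.92. By the same limma test 0 were lower, with 1, YNCC0005W, lower at an unadjusted p below 0.05 and named here after its values were seen. Of all genes 1.81% were higher and 3.85% lower, 5.67% in all. The tRNA median difference was 0.38, with 69 of the 83 genes above 0, and the median of all genes was -0.05. The groups did not overlap, with nitrogen limitation higher, for 18 tRNA genes, compared with 6.93% of all genes, and with it lower for 1, compared with 14.1%. YNCK0017W had 48.2, 35.4 and 28.2 under nitrogen limitation and 19.6, 21.4 and 15.6 under carbon limitation, without overlap. Each of the 5 calls was lost without at least 1 array, YNCM0004C (adjusted p = 0.0544) and YNCK0017W (adjusted p = 0.0652) without replicate 3 of the 12 °C carbon-limited group alone. That array left 1 call of the 5 when dropped. There were 2 calls without replicate 1 of the 12 °C nitrogen-limited or of the 12 °C carbon-limited group, and 3 without replicate 1 of the 30 °C carbon-limited group or any 30 °C nitrogen-limited array.

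Nearly all tRNA probe sets carry a letter suffix in their name, which in this array design can mark probes shared with other sequences. Of the 83, 72 carry the suffix f, 9 the suffix s and 2 none. The 2 without a suffix, TRR4 and YNCG0028W, the second named after its values were seen, passed neither temperature test, with YNCG0028W changing by -0.50 under nitrogen limitation (adjusted p = 0.0848) and -0.51 under carbon limitation (adjusted p = 0.0966). Of the 57 tested genes that are no tRNA and carry the suffix f, 16 fell and 14 rose under nitrogen limitation, a median log2 change of -0.25. These were 28.1% and 24.6%, against 22.3% and 15.9% of all genes. Under carbon limitation 16 fell and 5 rose, a median of 0.12. These were 28.1% and 8.77%, against 12.6% and 13.1% of all genes. Copies of a tRNA gene are close or identical in sequence, so a probe set named for 1 gene may read its other copies. By the rule for alike signals, 75 of the 83 genes fell into 19 groups of 2 or more and 8 stood alone. A group so formed need not hold copies of 1 tRNA. The lowest pairwise correlation within a group ran from 0.11 (YNCD0009W, YNCE0008C and YNCJ0008W) to 0.97 (SUF1 and SUF6). IMT3 was grouped with SUF2, and SUP51 with SUF10, genes of different amino acids. The count of tRNA genes that fell is not a count of independent measurements.

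**Figure D4:**
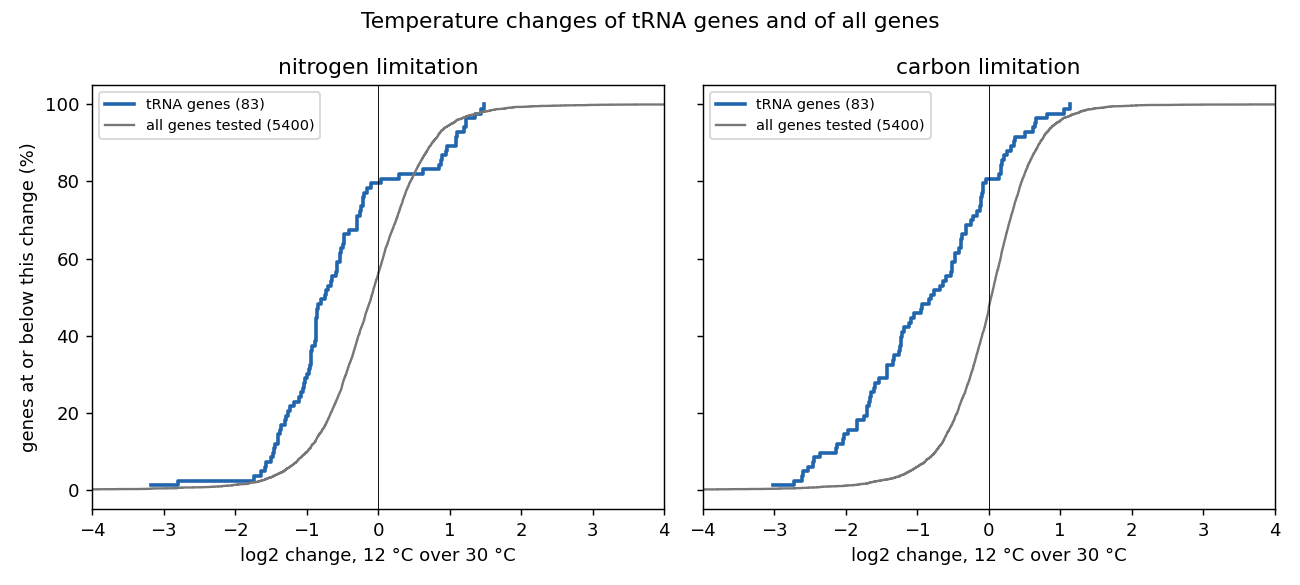
Share of genes (vertical axis, percent) at or below a given log2 change, 12 °C over 30 °C (horizontal axis), for the 83 tRNA genes (blue) and the 5400 genes tested (grey), under nitrogen limitation (left) and carbon limitation (right). The tRNA curves lie left of those of all genes over most of their range, with medians of -0.75 and -0.81 against -0.10 and 0.03.

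The tRNA signals varied more between arrays of a group than those of other genes. The median SD of the log2 signals over 3 arrays was 0.34 at 12 °C and 0.26 at 30 °C under nitrogen limitation and 0.38 at 12 °C and 0.29 at 30 °C in carbon-limited cultures, and over all genes these medians were 0.28, 0.18, 0.26 and 0.18. The tRNA genes deviated together. Replicate 1 of the 12 °C nitrogen-limited group was the highest of its 3 arrays for 57 tRNA genes, with a median deviation of 0.26 from the group mean. Replicate 2 of the 12 °C carbon-limited group was the highest for 52, again with a median deviation of 0.26. Replicate 3 of the 30 °C carbon-limited group was the lowest for 57 (median -0.22), and replicate 1 of the 30 °C nitrogen-limited group the lowest for 49 (median -0.14). On these 4 arrays the median deviation of all genes lay between -0.04 and 0.00.

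Control probe sets also differed between arrays. The 10 probe sets for ribosomal RNA, an untailed RNA like mature tRNA, had a geometric mean signal of 49.0, 18.1 and 144 at 12 °C and 31.2, 137 and 64 at 30 °C under nitrogen limitation, and of 85.4, 139 and 120 at 12 °C and 137, 194 and 201 at 30 °C in carbon-limited cultures. Signals at 12 °C and 30 °C overlapped under both limitations. The 3' to 5' signal ratio of the actin gene ACT1, a sign of RNA integrity, averaged 1.55 ± 0.224 at 12 °C and 1.82 ± 0.112 at 30 °C under nitrogen limitation, and 1.53 ± 0.380 at 12 °C and 1.82 ± 0.109 at 30 °C in carbon-limited cultures (SD, n = 3 each). Spike-in controls averaged 224 ± 99.3, 236 ± 23.3, 213 ± 34.3 and 137 ± 25.5 in the 4 groups in that order. The part of these differences in the tRNA results was not tested.

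Protein-coding neighbours of the tRNA genes were taken by gene order in R64. Next to the 46 tRNA genes that fell under nitrogen limitation, 70 protein-coding genes were tested, and 19 of them fell and 6 rose, so 27.1% fell and 8.57% rose, against 22.3% and 15.9% of all genes. Next to the 41 that fell under carbon limitation, 60 were tested, and 7 fell and 10 rose, so 11.7% fell and 16.7% rose, against 12.6% and 13.1% of all genes. The median log2 change of these neighbours was -0.22 under nitrogen limitation and 0.29 under carbon limitation, against -0.10 and 0.03 for all genes. Next to the 15 tRNA genes that rose under nitrogen limitation, 23 were tested, and 6 fell (26.1%) and 7 rose (30.4%). Next to the 22 not called there, 31 were tested, and 7 fell (22.6%) and 5 rose (16.1%). Under carbon limitation, 1 of 9 fell and 1 rose next to the 5 that rose. Next to the 37 not called, 7 of 55 fell and 7 rose (12.7% each).

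Genes of the pathway are set against all genes, of which 15.9% rose and 22.3% fell at 12 °C under nitrogen limitation and 13.1% rose and 12.6% fell under carbon limitation. Of 27 genes for RNA polymerase III, its initiation factors and its repressor MAF1, 8 rose and 0 fell at 12 °C under nitrogen limitation and 4 rose and 0 fell under carbon limitation (limma; at an unadjusted p below 0.05, 0 and 2 were lower), with median log2 changes of 0.41 and 0.26. The rises were 29.6% and 14.8% of the list. RPC31, a subunit of that polymerase, averaged 165 ± 49.6 at 12 °C and 73.5 ± 1.17 at 30 °C under nitrogen limitation (log2 change 1.12, adjusted p = 0.00133) and 246 ± 49.0 at 12 °C and 108.5 ± 11.5 at 30 °C in carbon-limited cultures (log2 change 1.17, adjusted p = 0.00147; SD, n = 3 each). RPC40, a subunit shared with RNA polymerase I, rose by 1.23 on the log2 scale under nitrogen limitation (adjusted p = 0.000314), and RPC11, a subunit for termination, rose by 1.05 under carbon limitation. Of 53 tRNA modification genes, 18 rose and 2 fell under nitrogen limitation and 10 rose and 4 fell under carbon limitation, with medians of 0.31 and 0.23. The rises were 34% and 18.9% of the list and the falls 3.77% and 7.55%. PUS7, a pseudouridine synthase, rose by 1.83 under nitrogen limitation (adjusted p = 5.37e-07) and 1.31 under carbon limitation, and PUS4, another, rose by 1.46 under carbon limitation. TRM11, a tRNA methyltransferase subunit, rose by 1.59 under nitrogen limitation, while UBA4, of the tRNA thiolation pathway, fell by 0.93 and by 0.81 under the 2 limitations.

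Of 18 genes for tRNA ends and introns, 4 rose and 1 fell under nitrogen limitation and 6 rose and 0 fell under carbon limitation (limma; 0 lower at an unadjusted p below 0.05). The rises were 22.2% and 33.3% of the list, against 15.9% and 13.1% of all genes. TRZ1, the nuclease that trims the 3' end, averaged 26.8 ± 4.44 at 12 °C and 13.5 ± 0.451 at 30 °C under nitrogen limitation (log2 change 0.97) and 40.8 ± 6.13 at 12 °C and 14.8 ± 2.44 at 30 °C in carbon-limited cultures (log2 change 1.47). TPT1, which acts after tRNA splicing, fell by 0.96 under nitrogen limitation (adjusted p = 0.0152). Of 9 genes for tRNA export and turnover, 1 rose and 5 fell under nitrogen limitation and 1 rose and 2 fell under carbon limitation. The falls were 55.6% and 22.2% of the list, against 22.3% and 12.6% of all genes. RNY1, a vacuolar RNase that cleaves tRNA, averaged 20.1 ± 5.71 at 12 °C and 46.5 ± 5.26 at 30 °C under nitrogen limitation (log2 change -1.25, adjusted p = 0.000481) and fell by 0.93 under carbon limitation. MET22, whose loss in yeast stabilises unmodified tRNAs, rose by 0.81 under nitrogen limitation and 0.70 under carbon limitation.

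Of 23 genes for the tailing and decay of nuclear RNA, 2 rose and 3 fell under nitrogen limitation and 2 rose and 1 fell under carbon limitation, with medians of 0.13 and 0.10. The rises were 8.7% of the list under both limitations, against 15.9% and 13.1% of all genes, and the falls were 13% and 4.35%, against 22.3% and 12.6%. MTR4, the helicase of TRAMP, averaged 70.0 ± 1.22 at 12 °C and 39.1 ± 3.23 at 30 °C under nitrogen limitation (log2 change 0.84, adjusted p = 0.00263) and 80.4 ± 4.83 at 12 °C and 39.9 ± 5.13 at 30 °C in carbon-limited cultures (log2 change 1.01, adjusted p = 0.00104). PAP2, the main poly(A) polymerase of TRAMP, averaged 24.8 ± 8.96 at 12 °C and 24.7 ± 3.19 at 30 °C under nitrogen limitation (log2 change -0.06, adjusted p = 0.887) and 26.2 ± 6.08 at 12 °C and 18.9 ± 5.16 at 30 °C in carbon-limited cultures (log2 change 0.48, adjusted p = 0.23); it is named here after its values were seen. NAB3, an RNA-binding protein of nuclear termination, fell by 1.23 under nitrogen limitation and 0.83 under carbon limitation. Of 21 cytosolic tRNA synthetases and their cofactor, 4 rose and 1 fell under nitrogen limitation and 1, WRS1, rose under carbon limitation, where 0 fell (limma; 2 lower at an unadjusted p below 0.05). The rises were 19% and 4.76% of the list, against 15.9% and 13.1% of all genes. HTS1, the histidine enzyme, averaged 570 ± 59.5 at 12 °C and 288 ± 9.15 at 30 °C under nitrogen limitation (log2 change 0.98, adjusted p = 0.000535).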

How the data were processed

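The authors made the deposited linear intensities, 1 per probe set, with the Affymetrix software GCOS, per the submitters' processing notes. Its version and settings: not given in the sources used here. A trimmed mean, leaving out 2% of probe sets at each end, of 150.1 on every array shows that the deposited intensities had been scaled. No batch or scan date is given in the sources used here, and the number of arrays limits the precision.

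For the tests, 12 replaced every lower signal before the log2 step, so changes near the floor are understated and folds against a group wholly at the floor are bounds. A gene was represented by its brightest probe set among those with 1 annotated gene (6504 of 9335 probe sets; 328 had several genes and 2503 none listed). Group means of all 12 arrays were fitted with lmFit and eBayes (trend) in limma 3.58.1 under R 4.3.3, two-sided, with Benjamini-Hochberg adjustment over 5400 genes and a threshold of 0.05; the code was tested on simulated data. An exact permutation test of 3 against 3 arrays cannot give a p below 0.1.

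The members, gene lists and alternatives were chosen with earlier results of these data known. Named genes were drawn from up to 8 calls each way per contrast with the largest log2 change. They were also drawn from the 6 brightest and 3 dimmest members, those called under both limitations, and amino acid families with at least 2 tested members. For the lists, they came from the 2 largest calls each way per list and temperature contrast. Not every gene that qualified is named. MTR3 (log2 change 1.12) and POP3 (1.22) rose more under nitrogen limitation than MTR4 and TRZ1. TUM1 (-0.91) fell more under carbon limitation than UBA4. Further names are stated where they occur. Alternatives were other floors and filters, median and quantile scaling, the mean over a gene's probe sets, no trend, fits of the contrast's groups alone, unsuffixed probe sets alone, a replicate block and leaving out each array.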

Additional observations from a re-analysis of the deposited data

Results flagged for a closer look

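The difference between the temperature effects was itself tested (limma, adjusted over all 5400 genes). Of all genes, 7.44% passed, 2.91% upward and 4.54% downward. Of the tRNA genes, 7.23% passed upward and 1.2% downward. Whether tRNA genes pass more often than genes in general was not tested. For 7 tRNA genes the temperature effect differed between the limitations by this test. The differences, nitrogen-limited minus carbon-limited log2 change, were 1.59 for YNCM0004C (adjusted p = 0.0165), 1.58 for YNCJ0006W (adjusted p = 0.00988), 1.55 for YNCB0015W (adjusted p = 0.0102), 1.44 for YNCM0033C (adjusted p = 0.0345), 1.2 for YNCP0007C (adjusted p = 0.024), 1.06 for YNCJ0023C (adjusted p = 0.031) and -1.22 for YNCD0009W (adjusted p = 0.044).

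YNCJ0006W, YNCP0007C and YNCJ0023C fell more at 12 °C under carbon limitation, by log2 changes of -2.12, -1.61 and -1.70, than under nitrogen limitation, at -0.54, -0.41 and -0.64. YNCB0015W, YNCM0004C and YNCM0033C rose at 12 °C under nitrogen limitation, by 1.43, 1.22 and 0.97, and under carbon limitation changed by -0.12, -0.37 and -0.47 without passing. Of the 7, only YNCJ0006W and YNCB0015W passed whichever single array was left out.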

How the results depend on the processing

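Total counts of called tRNA genes depended on the floor, the choice of probe sets, the arrays fitted and single arrays. Among the alternatives, calls of all genes were counted for median and quantile scaling alone. The tRNA counts under the others, in all sections, cannot be set against genes in general. With a floor of 50 the calls were 22 under nitrogen limitation (20 of them falls), 33 under carbon limitation (33 falls and 0 rises, so all 5 rises and with them every rise under both limitations were lost), 3 for the difference of temperature effects, 3 for nitrogen against carbon at 30 °C and 0 at 12 °C (limma; 3 at an unadjusted p below 0.05). The carbon-limited signals of YNCD0013C, YNCK0017W, YNCL0007W and YNCO0012C all lay below 50, so the loss of these rises was fixed in advance. Fitting only the groups of the contrast gave 21 calls at 30 °C and 0 at 12 °C (11 at an unadjusted p below 0.05), and no filter on dim genes gave 2 at 12 °C. With unsuffixed probe sets alone, 2 members were tested and 0 were called in each of the 5 comparisons (limma; at most 1 at an unadjusted p below 0.05). Leaving out 1 array gave 42 to 63 calls under nitrogen limitation, 41 to 49 under carbon limitation, 2 to 11 for the difference, 6 to 19 at 30 °C and 1 to 7 at 12 °C. Median and quantile scaling, the floor of 1, the stricter filter, the mean over probe sets and the fit with no trend kept these totals within 1.5 times. Counts by direction moved more with the scaling. Falls under nitrogen limitation were 46 as deposited, 29 with median scaling and 35 with quantile normalization. At 30 °C, 10 higher and 3 lower under nitrogen limitation became 9 and 5 with median scaling and 7 and 6 with quantile normalization.

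Of 84 calls of named genes in 22 alternatives, 32 passed in every alternative that tested the gene, and none reversed its direction in these alternatives. Of the losses, 47 came with the floor of 50. A gene below 50 on every array cannot be called at that floor, so such losses were fixed in advance. SUP51, at most 40.4, and CDC65, at most 34.3, are examples. The cause of the other losses was not tested.

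Between groups, the correlation of same-numbered deviations ran from -0.195 to 0.184. Differently numbered arrays were not compared, so these values do not show whether replicate numbers pair the samples. With the replicate block, 58 tRNA genes were called under nitrogen limitation, 46 under carbon limitation, 6 for the difference, 13 at 30 °C and 4 at 12 °C.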
